A study of Oryza sativa with 4 samples.

Results

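Pairs of neighbouring nucleosome summits, of which one was listed only in WT and the other only in *oschz1-1*, were examined in the rice genome (build MSU7). A summit is where the occupancy of a nucleosome peaks. The pairs were chosen by the presence or absence of a summit in the maps of the 2 genotypes. The members had to lie at most 150 bp apart on the 12 nuclear chromosomes, and each had to be the nearest single-genotype summit of the other. Of the 1688708 nucleosomes listed on these chromosomes, 279320 had a summit only in WT and 293277 only in *oschz1-1*, and 47968 pairs were found among them. The pairs took in 17.2% of the WT-only and 16.4% of the *oschz1-1*-only nucleosomes, or 5.68% of all nucleosomes. For short, the WT-only member is called the lost summit and the *oschz1-1*-only member the gained summit.

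The maps came from MNase-seq of seedlings, 30 days old, grown under 14 h light (30 °C) and 10 h dark (28 °C), with 2 libraries of WT and 2 of *oschz1-1*. The mutant, which the labels give as oschz1 and the study as *oschz1-1*, is a single transgene-free line with a CRISPR/Cas9 deletion that shifts the reading frame of *OsChz1*. The table holds 1 merged value per genotype and no number of reads, so that neither the spread between libraries nor the depth behind a value is known, and every comparison is given as a description without a test. The labels give the tissue as seedling, and the study's methods name powdered leaf material for this assay. Such material mixes many cell types, and a change in part of the cells cannot be told apart from a partial change in all of them.

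A nucleosome is DNA wound around an octamer of histones H2A, H2B, H3 and H4. Histone chaperones such as OsChz1, which binds H2A-H2B and H2A.Z-H2B dimers, escort histones during assembly and disassembly, while chromatin remodellers can slide an assembled octamer along the DNA. Micrococcal nuclease cuts the linker DNA, so that the sequenced fragments mark where octamers sat. In a population of cells an octamer may sit at alternative overlapping positions, and the occupancy of each then measures how often it is used.

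The members of a pair were between 100 and 150 bp apart, with a median of 115 bp and quartiles of 105 and 130 bp. The lower bound was not set by the rule. Summits of one map were never less than 100 bp apart, and a WT and an *oschz1-1* summit that were listed as the same nucleosome were always less than 100 bp apart. The shortest possible distance of 100 bp was also the most frequent, with 10649 pairs (22.2%). Most distances (79.1%) were multiples of 10 bp, as the summits were placed on a coarse grid. In 44676 pairs (93.1%) the members were closer than the length of DNA wound on a nucleosome core, so that they overlapped on the DNA. Overlap was not restricted to the pairs, since 19.7% of neighbouring summits within the WT map and 20.3% within the *oschz1-1* map were also closer than that length. No summit of a nucleosome of both maps lay between the members of any pair (0 of 47968). With members at most 150 bp apart, the spacing of at least 100 bp within a map left hardly any room for one. Nothing is therefore read from this absence.

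Over all pairs, both directions from the lost to the gained summit were about equally frequent. The *oschz1-1* summit lay at the higher coordinate in 24019 pairs (forward, 50.1%) and at the lower one in 23949 (reverse). The share of forward pairs was between 49.5% and 50.3% in each of the 5 steps of about 10 bp from 100 to 150 bp (48.9% over the last 5 bp), and between 49.1% on chromosome 2 and 51.2% on chromosome 12.

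The number of pairs continued without a break from that of the displaced nucleosomes of both maps. Displacements of 90 to 99 bp were found at 18292 nucleosomes that both maps listed, and 13647 pairs were 100 to 109 bp apart. There were then 10770 pairs at 110 to 119 bp, 8671 at 120 to 129 bp and 6545 at 130 to 139 bp. Both members of a nearest pair could also have come from the same genotype, which was the case for 24230 pairs of at most 150 bp (11210 WT-only and 13020 *oschz1-1*-only). At 100 to 109 bp, 78.2% of the nearest pairs joined opposite genotypes. This share fell to 57.1% at 140 to 149 bp and was between 50.9% and 57.0% at each further step up to 299 bp. Opposite-genotype neighbours thus outnumbered same-genotype neighbours most at short distances. Same-genotype pairs numbered 3797 at 100 to 109 bp and 4993 at 110 to 119 bp. Their members lie in one map, where summits were never less than 100 bp apart. The part of this spacing in the shares was not tested.

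**Figure D1:**
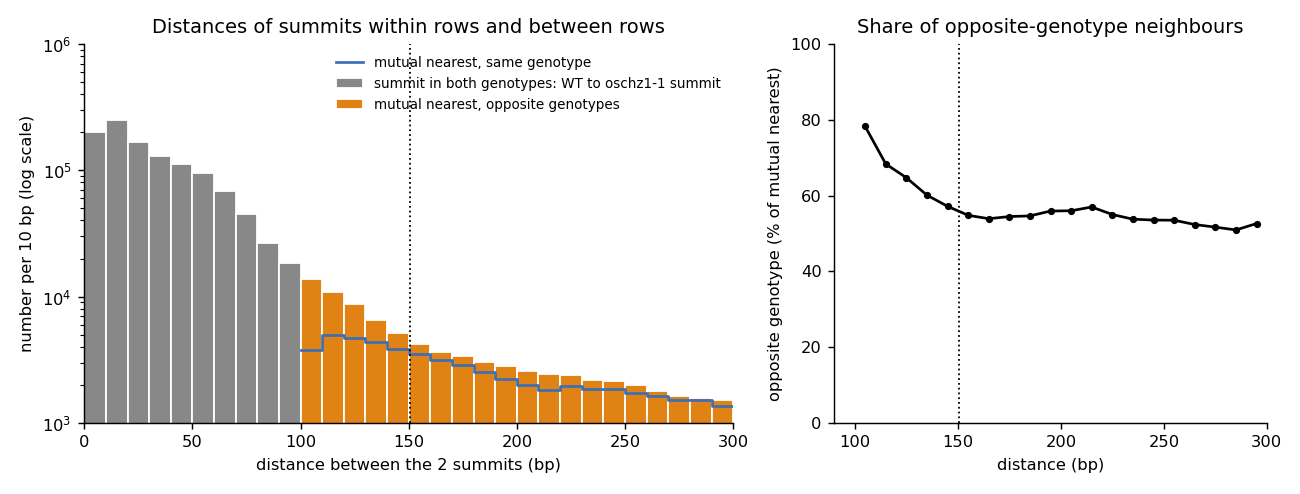
Left, number of summit pairs per 10 bp of distance (x axis, bp; y axis, log scale). Grey bars are WT to *oschz1-1* displacements of nucleosomes of both maps, orange bars are mutual nearest single-genotype summits of opposite genotypes and the blue line is those of the same genotype; the dotted line marks 150 bp. Right, the share of opposite genotypes among mutual nearest summits, which falls from 78.2% at 100 to 109 bp to 57.1% at 140 to 149 bp.

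Most positions kept part of their occupancy in the genotype without a summit. At the lost summit, the median occupancy signal, as scaled between the maps by DANPOS, was 14.7 in WT (quartiles 12.2 and 18.0) and 7.65 in *oschz1-1* (5.67 and 9.74). At the gained summit it was 7.73 in WT (5.68 and 9.83) and 14.6 in *oschz1-1* (12.2 and 17.9). The values were thus mirror images, and the middle 50% of the values of the genotypes did not overlap at either member. The log2 ratio of *oschz1-1* to WT, with a pseudocount of 1, had a median of -0.89 at the lost and 0.89 at the gained summit. The rule selected on summit calls, which rest on these values, so neither the separation of the genotypes nor the direction of the ratios is a finding. Nevertheless, occupancy at the lost summit was higher in *oschz1-1* than in WT in 1876 pairs (3.91%), and that at the gained summit was lower in 2065 pairs (4.30%). A position with hardly any signal in the other genotype was rare. The *oschz1-1* value was less than 1 at 229 lost summits and exactly 0 at 47, and the WT value was less than 1 at 195 gained summits and exactly 0 at 42.

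**Figure D2:**
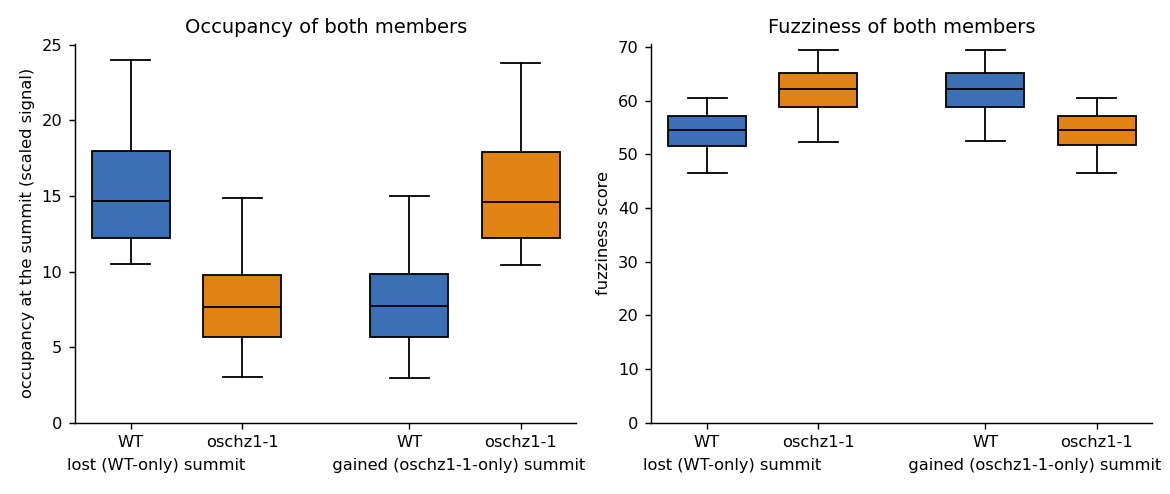
Occupancy at the summit (left, scaled signal) and fuzziness score (right) of the lost and the gained member of the 47968 pairs in WT (blue) and *oschz1-1* (orange). Boxes span the quartiles with the median as a line, and whiskers span the 5th to the 95th percentile of pairs, not of libraries. Median occupancy is 14.7 against 7.65 at the lost and 7.73 against 14.6 at the gained summit.

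The balance between the positions may be expressed as the share of the occupancy of a pair that lies at the gained position. This share had a median of 34.2% in WT (quartiles 27.4% and 40.2%) and of 65.9% in *oschz1-1* (59.8% and 72.6%). It was less than 10% in WT in only 536 pairs (1.12%), and the lost position held less than 10% in *oschz1-1* in 562 pairs (1.17%). The sum over both positions was close to even between the genotypes, with a median log2 ratio of -0.0034 (quartiles -0.27 and 0.26), and it was within 1.25-fold in 28173 pairs (58.7%). The occupancy carried over, which is the *oschz1-1* value at the gained summit against the WT value at the lost summit, had a median log2 ratio of -0.0041 (quartiles -0.30 and 0.29). It was within 1.5-fold in 38937 pairs (81.2%), beside 80.7% of the nucleosomes of both maps whose values in WT and *oschz1-1* were within 1.5-fold. Both values of the carry-over are called summits, whose occupancies lay in similar ranges, and the rule treats the genotypes alike. Nothing is therefore read from the near-even medians or from the likeness of these shares. Across pairs the 2 values of the carry-over had a Pearson's r of 0.22, against 0.44 for WT and *oschz1-1* values across the 1116111 nucleosomes of both maps. Both correlations are across regions of the same merged maps and describe these maps alone.

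A change of at least 2-fold was seen at the lost summit in 20406 pairs (42.5%) and at the gained summit in 20062 pairs (41.8%). Over all nuclear nucleosomes, 7.79% were at least 2-fold lower and 8.02% at least 2-fold higher in *oschz1-1*. Over single-genotype nucleosomes, which the rule drew on, 41.8% of the WT-only ones were at least 2-fold lower and 41.8% of the *oschz1-1*-only ones at least 2-fold higher. The members of pairs therefore did not stand out from other single-genotype nucleosomes in the size of the change. WT-only nucleosomes with no single-genotype summit within 150 bp (200650) had a median WT occupancy of 14.0 and an *oschz1-1* occupancy of 7.42, a log2 ratio of WT to *oschz1-1* of 0.88. The corresponding 210719 *oschz1-1*-only nucleosomes had 13.9 in *oschz1-1* and 7.36 in WT, a log2 ratio of *oschz1-1* to WT of 0.88.

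A pair was read as one displaced nucleosome where the lost summit was at least 2-fold lower and the gained summit at least 2-fold higher in *oschz1-1*, and where the occupancy carried over was within 1.5-fold. These conditions were met by 6329 pairs (13.2%), of which 3170 were forward. In these pairs the lost summit had a median occupancy of 15.3 in WT and 5.23 in *oschz1-1*, while the gained summit had 5.20 in WT and 15.3 in *oschz1-1*. The gained position held a median of 25.4% of the occupancy of the pair in WT and 75.0% in *oschz1-1*. Even these pairs thus had signal at both positions in both genotypes, in a ratio that was turned around.

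The other pairs fell into 4 classes. Both members changed at least 2-fold without the carry-over in 1511 pairs (3.15%), in which the gained position held 21.9% of the occupancy in WT and 78.9% in *oschz1-1*. The lost summit alone did so in 12566 pairs (26.2%), and its partner rose from a median of 9.13 in WT to 13.3 in *oschz1-1*. The gained summit alone did so in 12222 pairs (25.5%), and its partner went from 13.3 in WT to 9.11 in *oschz1-1*. Neither member reached 2-fold in 15340 pairs (32.0%), in which the gained position held 39.6% of the occupancy in WT and 60.4% in *oschz1-1*. By direction, 6625 of the pairs with the lost summit alone were forward (52.7%), and 5882 of those with the gained summit alone (48.1%). The forward share was 49.7% of the pairs with both members but no carry-over and 49.5% of those with neither. The difference between the classes was not tested. In all, both members changed at least 2-fold in 7840 pairs (16.3%), while the product of the shares at the lost and the gained summit is 17.8%. The log2 ratios at both members had a Pearson's r of 0.079 across pairs. As a fall is a negative ratio, a larger fall at the lost position went with a slightly smaller rise at the gained one. This relation was weak.

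The share that read as one displaced nucleosome depended on where the limits were put. It was 41.9% with 1.5-fold in place of 2-fold and 0.169% with 4-fold. With a pseudocount of 5 in place of 1, it was 2.99%.

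**Figure D3:**
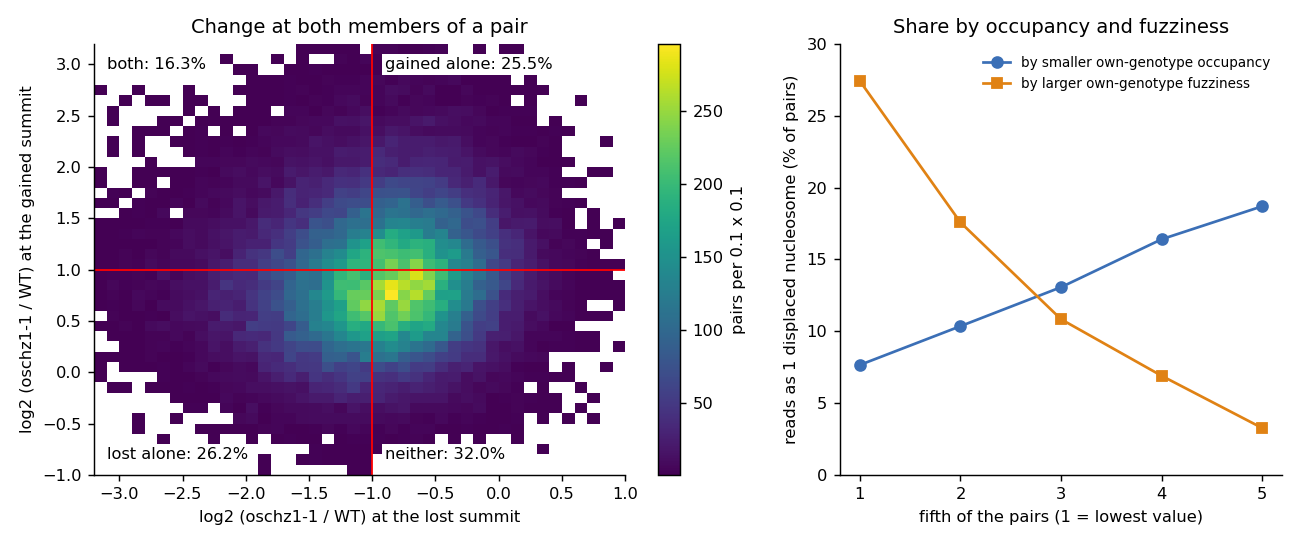
Left, number of pairs by the log2 ratio of *oschz1-1* to WT at the lost (x axis) and the gained summit (y axis), in squares of 0.1, with red lines at 2-fold and the percentage of all pairs in each quadrant. Right, the percentage of pairs that read as one displaced nucleosome in 5 equal groups of pairs; it goes from 7.65% to 18.7% with rising occupancy and from 27.4% to 3.25% with rising fuzziness.

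Displaced pairs were more frequent where both nucleosomes had high occupancy and low fuzziness in their own genotype. By the smaller of the occupancies that the members had in their own genotype, the share was 7.65% in the lowest of 5 equal groups of pairs (at most 10.9) and 18.7% in the highest (at least 15.7). Fuzziness, the spread of fragment positions around a summit, was not used by the rule, and it separated the pairs further. By the larger of the fuzziness scores of the members in their own genotype, the share was 27.4% in the lowest group (at most 53.9), 10.8% in the middle one and 3.25% in the highest (at least 59.2). The share of pairs with 2-fold at neither member rose over the same groups from 13.9% to 52.8%. Occupancy and fuzziness come from the same fragments as the ratios, and their part in the share was not tested. By distance, the share was 12.8% at 100 to 109 bp and 15.7% at 140 to 150 bp.

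Over all pairs, the fuzziness in the own genotype hardly differed between the lost and the gained summit. The median score was 54.6 at the lost summit in WT and 54.6 at the gained summit in *oschz1-1*. The difference within a pair had a median of -0.012 (quartiles -3.76 and 3.81). Single-genotype nucleosomes without a neighbour within 150 bp had 54.3 in WT and 54.2 in *oschz1-1*, and nucleosomes of both maps had 52.9 and 53.0. In the genotype without a summit, the score around the position was 62.2 at either member. It was 59.2 and 59.1 at the WT-only and the *oschz1-1*-only nucleosomes without a neighbour, and 59.9 at those of either genotype that had a single-genotype summit within 150 bp without being in a pair. The paired positions thus had the highest score of the 3, and this difference could not be tested on merged maps. By the rule another summit lay 100 to 150 bp away from the paired positions, and its part in the score was not tested.

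Single pairs illustrate these values. The 4 pairs nearest to the medians of the distance and of the 4 occupancies were all 115 bp apart. In a forward pair of chromosome 6, with the WT summit at 17289756 and the *oschz1-1* summit at 17289871, the lost summit had an occupancy of 14.9 in WT and 7.42 in *oschz1-1*, while the gained summit had 7.65 in WT and 15.2 in *oschz1-1*. In a reverse pair of chromosome 4, with the WT summit at 4381446 and the *oschz1-1* summit at 4381331, these values were 14.6 and 7.81 at the lost and 7.55 and 13.9 at the gained summit. Both pairs had their higher value at opposite positions in WT and *oschz1-1* and did not reach 2-fold at either member, which follows from the choice of pairs near medians that lie under 2-fold. The remaining 2 of the 4 pairs, on chromosome 3 (10651791 in WT and 10651906 in *oschz1-1*) and on chromosome 11 (19145541 and 19145426), likewise stayed under 2-fold at both.

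The displaced pairs were ranked by the smaller of the own-genotype occupancies of their members. The highest forward one was on chromosome 1, from 17219451 in WT to 17219556 in *oschz1-1*. Its lost summit had 29.2 in WT and 2.18 in *oschz1-1*, and its gained summit had 11.9 in WT and 29.1 in *oschz1-1*. The fall at the lost position, with a log2 ratio of -3.25, was larger than the rise at the gained one (1.22), and the occupancy carried over was nearly even, with a log2 ratio of -0.0054. The next forward pairs were on chromosome 2, from 20574481 to 20574581 (29.0 in WT at the lost and 30.1 in *oschz1-1* at the gained summit), and on chromosome 6, from 9652731 to 9652831 (27.7 and 30.9). At both, the position left behind still had an *oschz1-1* value above 11, at 13.5 and 11.3.

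The highest reverse pair was on chromosome 10, from 5454611 in WT to 5454491 in *oschz1-1*. Its lost summit had 29.6 in WT and 11.3 in *oschz1-1*, and its gained summit had 15.7 in WT and 32.5 in *oschz1-1*, barely a 2-fold rise. The pair on chromosome 2 from 25810931 to 25810811 was the most complete of the 3 reverse ones at its lost summit, with 28.8 in WT and 6.96 in *oschz1-1*, beside 13.5 in WT and 33.4 in *oschz1-1* at the gained summit. The pair on chromosome 4 from 24797031 to 24796911 was the most complete at its gained summit, with 8.08 in WT and 31.4 in *oschz1-1*, beside 28.2 and 12.9 at the lost summit. All 3 reverse pairs were displaced by 120 bp.

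The pairs with the highest occupancy of all, most of them on chromosome 12, did not read as displaced. Of the 21 pairs with at least 35 at both own-genotype summits, 14 lay on chromosome 12, and 12 of these within 34771 bp. The 21 pairs thus stand largely for 1 interval and not for pairs of high occupancy in general. Of all 21, 0 met the conditions and 20 were under 2-fold at both members. The 3 highest of these 20 lay on chromosome 12, all forward by 110 bp, with WT summits at 20529651, 20523521 and 20541141. At the first of them, occupancy was 51.3 in WT and 25.3 in *oschz1-1* at the lost and 33.4 in WT and 48.6 in *oschz1-1* at the gained summit.

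The pairs sat in wider intervals than nucleosomes of both maps, the only ones compared. In 26163 pairs (54.5%) the adjoining nucleosomes on both sides were listed in both genotypes. For these, the distance between the flanking summits had a median of 450 bp in WT and 450 bp in *oschz1-1*. Around nucleosomes of both maps with such flanks it was 390 bp in WT and 395 bp in *oschz1-1*. Each member of a pair had to lie at least 100 bp from the neighbours in its own map, and the part of this spacing in the width was not tested. Within the interval the lost summit lay nearer to the flank behind and the gained summit nearer to the flank ahead. Behind and ahead are set by the direction from the lost to the gained summit, so that this pattern follows from the definition. In WT the lost summit was a median of 160 bp from the flank behind it and 275 bp from the flank ahead. In *oschz1-1* the gained summit was 275 bp from the flank behind and 160 bp from the flank ahead. Neighbouring nucleosomes of both maps were a median of 190 bp apart. Nothing is read from the off-centre positions.

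The adjoining nucleosomes themselves were displaced in the direction of the pair more often than against it close by, where the spacing within a map bears on the direction. Of the 66928 flanking summits of both maps within 300 bp that were displaced by at least 10 bp, 41420 (61.9%) moved in the direction of the pair. The share was 65.7% ahead of the pair and 58.1% behind it. The limit of 300 bp was set on the WT summit of a flank alone, and so cut the sides differently. Nothing is therefore read from the difference between the sides. By mid-position, the share was 100% for flanks 50 to 100 bp from the nearer member, where the spacing of at least 100 bp within a map allows no other direction. At 100 to 150 bp, where this spacing still limits how far a flank can lie against the pair, it was 70.8% ahead and 70.1% behind, so that nothing is read from either value. Further away it was 55.4% ahead and 55.3% behind at 150 to 200 bp and 50.8% ahead and 50.4% behind at 250 to 300 bp. Over all flanks at least 150 bp from the nearer member in both maps, and at most 300 bp from it in WT, it was 51.8%. The second nucleosome of both maps on either side moved with the pair in 50.6%. Nucleosomes of both maps that were themselves displaced by 90 to 99 bp had a next neighbour that moved with them in 65.8%, and those displaced by 50 to 90 bp in 61.5%. Flanks of displaced pairs moved in the direction of the pair in 58.0% and those of pairs under 2-fold at both members in 64.4%. Both of these shares take in all flanks within 300 bp, also the close ones whose direction the spacing limits. Nothing is therefore read from their difference.

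**Figure D4:**
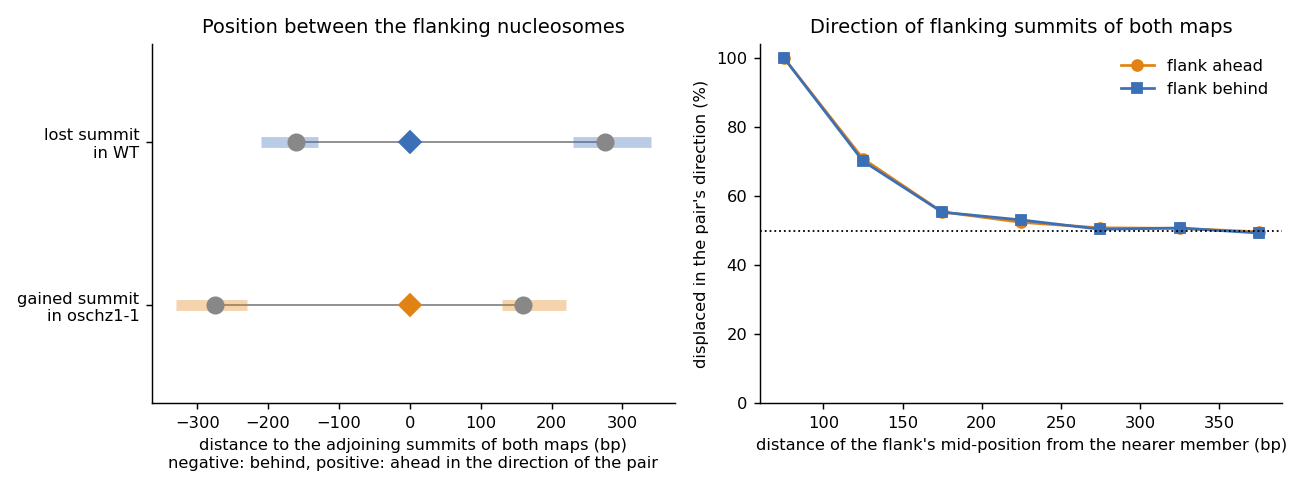
Left, position of the lost summit in WT and of the gained summit in *oschz1-1* (diamonds) between the adjoining summits of both maps (grey points, medians; pale bars, quartiles) in the 26163 pairs flanked on both sides, in bp along the direction from the lost to the gained summit. The medians are 160 bp behind and 275 bp ahead in WT and the reverse in *oschz1-1*. Right, the percentage of flanking summits displaced in the direction of the pair by distance, which is 100% at 50 to 100 bp and 50.8% ahead and 50.4% behind at 250 to 300 bp.

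Pairs were mostly isolated from each other. Consecutive pairs up to 300 bp apart numbered 523, of which 306 (58.5%) had the same direction. The share was 53.7% of 1563 at 300 to 500 bp, 50.6% of 3526 at 500 to 1000 bp and 49.8% of 23887 beyond 5000 bp. The longest series of consecutive pairs in one direction had 15 reverse pairs, on chromosome 4 from 10343391 to 10469253. It stretched over 125863 bp with up to 37238 bp between pairs, and 2 of its pairs read as displaced. Pairs in one direction that followed each other within 500 bp, a distance chosen after the data had been seen, formed 1084 stretches of 2, 29 stretches of 3 and a single stretch of 4.

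The stretch of 4 was on chromosome 8, with WT summits at 15902141, 15902541, 15902861 and 15903171 and *oschz1-1* summits at 15902251, 15902671, 15902991 and 15903271. All 4 were forward, by 110, 130, 130 and 100 bp. WT occupancy at the lost summits was 11.4, 16.3, 10.1 and 13.3, and *oschz1-1* occupancy there was 5.67, 5.23, 7.38 and 10.0. At the gained summits WT had 5.68, 5.49, 7.28 and 5.55, and *oschz1-1* had 13.3, 15.5, 12.2 and 16.6. Only the second pair read as one displaced nucleosome. A nucleosome of both maps between the first and the second pair lay 10 bp in the opposite direction. The 3 nucleosomes of both maps before the stretch also lay in the opposite direction. Counted from the first WT summit of the stretch, they were at -440, -250 and -110 bp in WT and at -530, -280 and -160 bp in *oschz1-1*. The first 2 after the stretch lay forward, at 1440 and 1590 bp in WT and at 1510 and 1640 bp in *oschz1-1*.

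**Figure D5:**
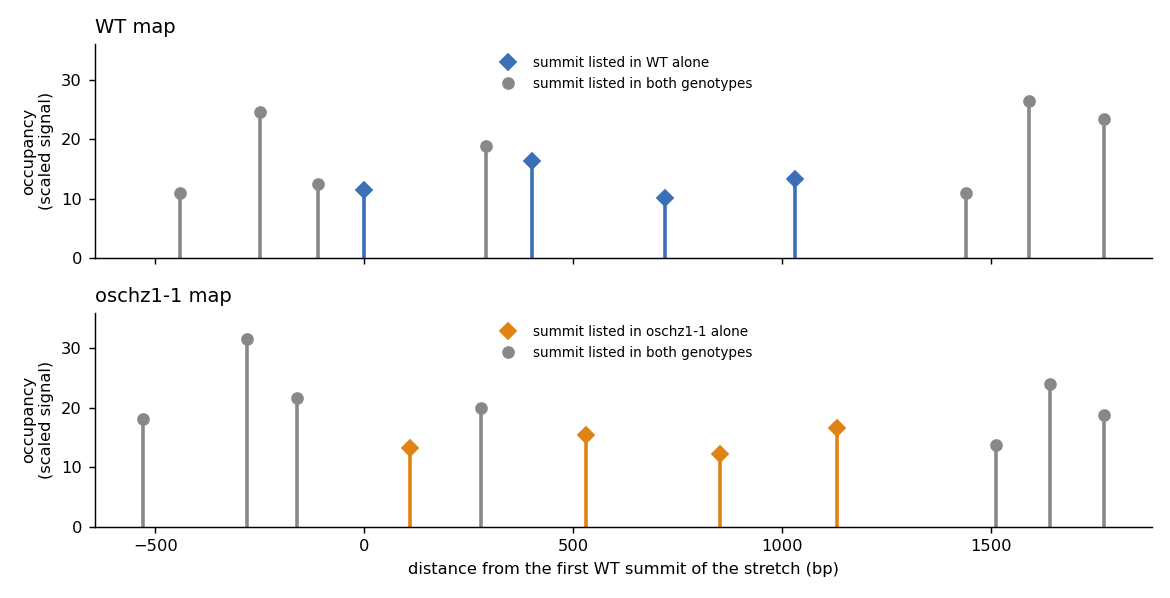
Summits of the WT map (top) and the *oschz1-1* map (bottom) over the stretch of 4 forward pairs on chromosome 8, with occupancy (scaled signal) against the distance in bp from its first WT summit. Diamonds are summits of a single genotype and grey circles those of both, and the 4 diamonds of *oschz1-1* lie 100 to 130 bp to the right of those of WT.

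The pairs were spread evenly along the genome. They made up between 16.6% (chromosome 10) and 17.6% (chromosome 11) of the WT-only nucleosomes of a chromosome. Of the *oschz1-1*-only ones they made up 15.4% on chromosomes 10 and 11 and between 15.9% and 16.9% on the other 10. Chromosomes 10 and 11 held 488 and 1604 *oschz1-1*-only nucleosomes whose WT signal was under 1, against 76 to 145 on the others, and the part of these in the lower shares was not tested. The share of displaced pairs was between 12.3% on chromosome 6 and 14.2% on chromosome 7. In 376 windows of 1000000 bp with at least 1000 WT summits, there was a median of 34.4 pairs per 1000 WT summits (quartiles 32.3 and 36.3). The lowest value was 22.7, on chromosome 4 from 14000001 to 15000000, and the highest was 42.4, on chromosome 8 from 28000001 to 29000000.

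The values on both sides of the limit of 150 bp were as follows. Pairs of 146 to 150 bp (3294) had a median occupancy of 14.3 in WT at the lost and 14.4 in *oschz1-1* at the gained summit, and 16.2% read as one displaced nucleosome. Pairs of 151 to 155 bp, just outside (946), had 13.4 and 13.1, and 14.0% read so. As most distances were multiples of 10 bp, and 151 to 155 bp holds no such distance, these groups are not directly comparable. Over 151 to 160 bp (3712 pairs) these values were 14.0 and 13.7, and 15.5%.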

How the data were processed

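MNase-seq was performed on 2 libraries each of WT and *oschz1-1*. As the methods state, the authors trimmed the reads, aligned them to MSU7 with Bowtie2 (version 2.3.4.1 per the labels), discarded reads of low mapping quality and potential duplicates with Samtools, and compared the genotypes with DANPOS, whose options are not given in the sources used here. The deposited occupancy is a signal that DANPOS scaled between the maps, with 1 value per genotype. Fuzziness is a score deposited by the authors. The deposited summit coordinates were used as given, with the control column as WT. The columns of p-values and FDR hold the authors' own comparison and were not used. There were 0 unmapped columns.

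Summits with 2 equally near neighbours were left out. Ratios were log2 with a pseudocount of 1. Regions named in the text were the displaced pairs (3 forward and 3 reverse) and the 3 pairs under 2-fold at both members with the highest smaller own-genotype occupancy, the 4 pairs nearest to the medians, and the longest series in one direction. The 21 pairs of at least 35 and the stretch of 4 were picked after their values were seen. Members, lists and settings were chosen with earlier results of these data known. Alternatives were other limits of distance, fold, carry-over, occupancy and pseudocount, other handling of ties and the point value. The functions were tested on simulated data. Python 3.11.15, numpy 2.4.6, pandas 2.3.3, scipy 1.17.1 and matplotlib 3.10.9 were used. Neither the MSU7 sequence nor its gene models were used here, so that no gene is named and no sequence is shown.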

Additional observations from a re-analysis of the deposited data

Results flagged for a closer look

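Pairs were also present on the sequences that are not among the nuclear chromosomes. By the same rule, 36 pairs were found among the 248 WT-only and 260 *oschz1-1*-only of the 1592 nucleosomes on ChrSy and ChrUn, which none of the comparisons above takes in.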

How the results depend on the processing

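No paired analysis was possible because the table holds a single merged value per genotype, and no library could be left out in turn. Of 44 alternative values, 26 lay outside the 95% binomial interval of the value reported (1.5 times, for counts). A change of sign was looked for only in the log2 ratios at the members. Another pseudocount cannot change their sign, so that nothing is read from the absence of such a change. The number of pairs was 31197 with at most 120 bp and 20729 with both members above the lower quartile of own-genotype occupancy (13.3 in WT and 13.1 in *oschz1-1*), both of which follow from the construction. It stayed within 1.5 times otherwise (50552 with ties accepted). The median distance was 110 bp for at most 120 bp, 125 bp for at most 200 bp, 110 bp with both summits on the 10 bp grid and 117 bp with neither on it. The share of forward pairs did not leave its interval under any alternative. The share that read as one displaced nucleosome was 41.9% with 1.5-fold, 0.169% with 4-fold, 16.7% with a pseudocount of 0.1 and 2.99% with one of 5. It was 16.0% with carry-over within 2-fold, 16.3% with no limit on carry-over, 17.3% above the lower quartile, 12.1% with the point value (occupancy where the maps differ most; 10819 pairs), 12.6% for at most 120 bp, 13.6% for at most 200 bp and, chosen after the data had been seen, 11.8% with flanks of both maps on both sides. Pseudocounts of 0.1 and 5 gave medians of -0.97 and -0.66 at the lost and of 0.96 and 0.66 at the gained summit. The share of flanking summits moving with the pair was 66.1% for at least 30 bp, 67.9% within 200 bp and 55.5% within 600 bp. It was 51.8% at 150 to 300 bp from the nearer member (upper limit in WT alone) and 50.6% for the second summit, both chosen later. The unknown depth limits all values.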

Other observations

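Of the 21 pairs with at least 35 at both own-genotype summits, a limit chosen after the data had been seen, 14 lay on chromosome 12, and 12 of these within 34771 bp from 20506481 to 20541251. The interval listed 209 nucleosomes with a median occupancy of 39.8 in WT and 43.6 in *oschz1-1*, against 15.2 in either map over all nuclear nucleosomes. Of the 12 pairs, 10 were forward and 2 reverse, 11 were under 2-fold at both members and 0 read as one displaced nucleosome. WT occupancy at their lost summits was 39.5 to 51.3 and *oschz1-1* occupancy there 23.3 to 39.5, while at the gained summits WT had 30.2 to 40.9 and *oschz1-1* 41.4 to 51.9. The own-genotype values were at least 35 by this choice, and the summit calls rest on the same values. Nothing is therefore read from the separation of the ranges. The cause of the high occupancy was not tested.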
